A study of Homo sapiens with 3 samples.

Results

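The transcription factors that give hepatocytes their identity, together with nuclear receptors expressed in liver, were described across 3 one-colour arrays of HepG2, an established human hepatocellular carcinoma line. The list names 39 genes. A gene was taken up if the platform annotation gave a probe its symbol and the authors' deposited table held a value for it on all 3 arrays, and its brightest probe stood for it. Of the 39 genes, 38 had a named probe and 36 had a value on every array, of 15697 genes with such a value in all. HNF4A was not analysed here, the probe of the estrogen receptor gene ESR1 had no value on any array, and that of the retinoic acid receptor gene RARB had none on 1 of them.

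All cells were HepG2 transfected with RNAiMAX and 10 nM Silencer Select siRNA and collected after 72 h, so the transfection is shared by every group. The groups were a negative control siRNA, an siRNA for VIL1, which encodes villin and cross-links actin in microvilli, and an siRNA for PTK7, a catalytically inactive member of the receptor tyrosine kinases, with 1 array each. For villin 2 siRNAs are named, without saying which was used for the array, and for PTK7 1 is named. With 1 array per group no difference has a replicate check and no significance test was possible, so each value describes these arrays only and the number of arrays limits its precision. In such a bulk sample a smaller number of cells expressing a gene and less RNA per cell cannot be told apart.

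Liver identity rests on a network of DNA-binding proteins that activate each other as well as their targets. HNF4A, the FOXA, ONECUT and C/EBP factors, NR5A2 and PROX1 bind together at the enhancers of genes for plasma proteins, lipid transport and detoxification. Nuclear receptors add control by small molecules: retinoids, oxysterols, glucocorticoids, thyroid hormone and vitamin D act through receptors of this family, many of them as heterodimers with a retinoid X receptor. Clock-linked factors, among them the REV-ERB repressors and the PAR bZIP proteins, give liver transcription its daily rhythm.

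VIL1 lay at deposited intensities of 924, 129 and 1084 on the control, villin siRNA and PTK7 siRNA arrays, the order kept for every triplet of intensities that follows. VIL1 was thus 5.66-fold lower with its own siRNA in normalised values. PTK7, with a dim probe, lay at 14, 25 and 12 and did not differ by 1.5-fold between the control array and the array labelled PTK7 siRNA, which is named by its label throughout. Intensities are whole numbers that the authors scaled to an array median of 25, and brightness also depends on the probe, so levels of different genes are not compared. The 9 hepatocyte markers examined (ALB, AFP, TTR, APOB, APOA1, SERPINA1, TF, FGB and GPC3) were all bright on every array, between 170 and 17375, with summed intensities of 51886, 37340 and 48533. The biliary markers KRT7, KRT19 and CFTR summed to 1645, 5628 and 3177, nearly all of it KRT19. Of 6 immune markers 4 had values on all arrays and summed to 537, 837 and 690, mostly LYZ and CD68, while PTPRC, the leukocyte common antigen, had a value of 2 on 1 array and none on the others. Fibroblast and endothelial markers summed to at most 158 and 50 on any array. The part of these marker levels in the results below was not tested.

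Differences are given on the log2 scale after background correction (normexp with an offset of 50, a constant that shrinks the differences of dim genes) and quantile normalisation. The slide is printed in 24 blocks, and the median difference of all genes in a block lay between -0.12 and 0.13 (villin siRNA minus control) and between -0.13 and 0.15 (PTK7 label minus control). Values are therefore set beside those obtained after each array was scaled to the spots surrounding each probe (position scaling), which brought the block medians to within -0.01 and 0.01.

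On the villin siRNA array few of the liver factors lay far from the control array, and how many lay below it depended on the scaling. Of the 36 genes, 27 were lower and 9 higher, with a median log2 difference of -0.07, against 54.5% lower and a median of -0.01 among all 15697 genes. With median scaling in place of quantile normalisation 20 were lower and 16 higher, against 53.2% of all genes lower, and with the scanner's background column 17 were lower and 19 higher, against 44.2%. CEBPA was the only one at least 1.5-fold lower, where 0.529% of all genes were, and none was at least 1.5-fold higher, where 1.62% were. After position scaling CEBPA fell short of this threshold and the repressor gene ZBTB20 alone reached it in the other direction, against 0.287% of all genes lower and 0.924% higher. With a limit of 1.2-fold, chosen after the values were seen, 7 were lower (CEBPA, RXRA, NR2F6, NR2F1, NR1H3, CEBPB and HLF), against 7.11% of all genes, and 1 was higher (ZBTB20), against 7.54%. All 8 were among the 25 members above the median level of all genes, and above that level 13.5% of genes were lower and 13% higher by 1.2-fold. After position scaling 6 were lower by this limit (CEBPA, CEBPB, HHEX, HLF, RXRA and NR2F1), against 4.39% of all genes, and ZBTB20 was higher, against 4.68%. The 1.2-fold shares among genes above the median level were not counted after position scaling or in the other comparisons. Brightness is therefore not matched there.

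**Figure D1:**
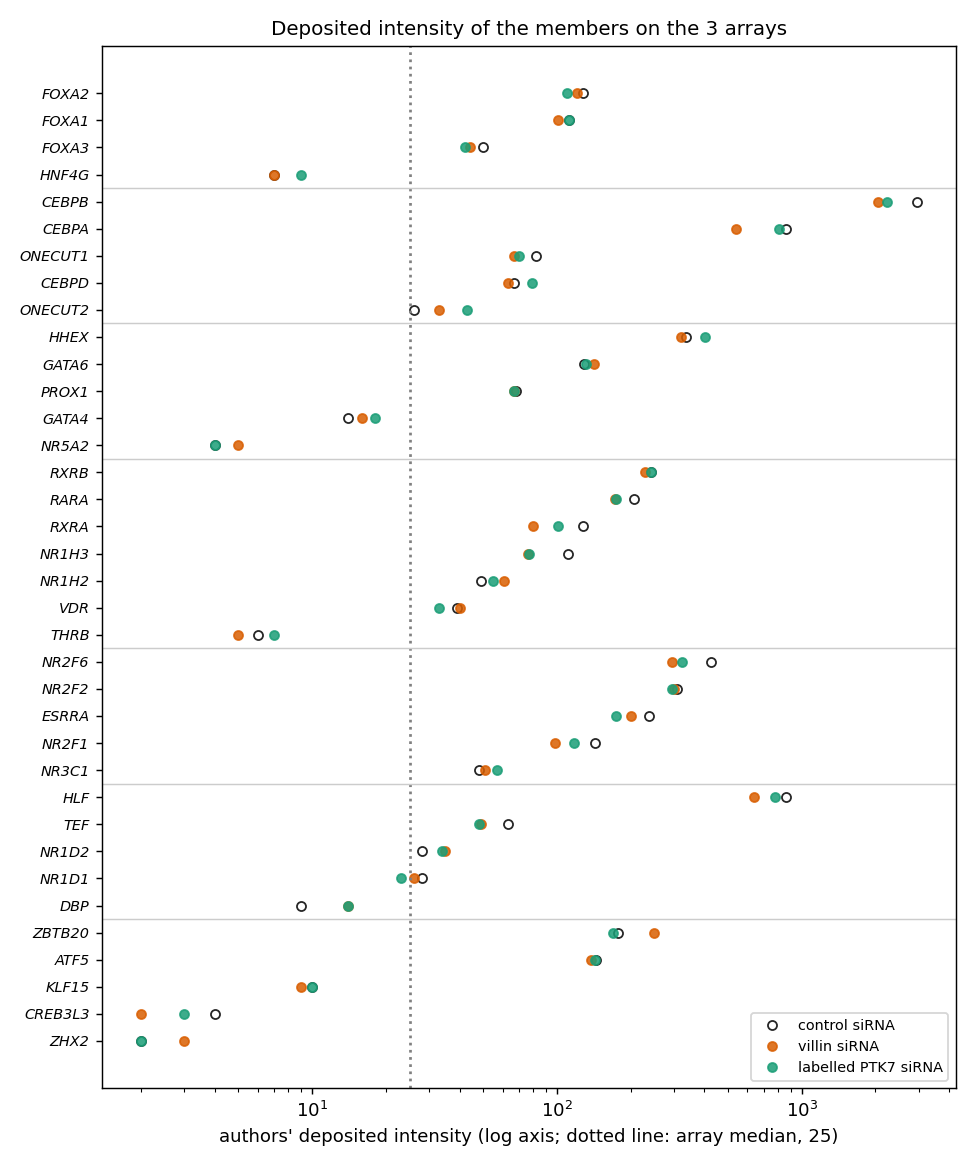
The authors' deposited intensity (log axis, scaled to an array median of 25, dotted line) of the 36 genes on the control, villin siRNA and PTK7 siRNA arrays, 1 point per array, with genes grouped by role between grey lines. Points of 1 gene mostly lie close together, and CEBPA, CEBPB, RXRA, ZBTB20, NR1H3, NR2F1 and NR2F6 are among those with wider gaps at higher brightness.

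The C/EBP factors, basic leucine zipper proteins that drive hepatocyte differentiation and the acute phase response, differed among themselves. CEBPA, the family member of the differentiated, non-dividing hepatocyte, lay at 858, 541 and 806. In these deposited intensities the control array and the array labelled PTK7 siRNA were close to each other, and the villin siRNA array stood alone. In normalised values CEBPA was 1.51-fold lower than on the control array (log2 difference -0.59, rank 78 from the lowest of 15697 genes) and 1.46-fold lower than on the array labelled PTK7 siRNA (-0.54, rank 43). After position scaling these differences were -0.52 and -0.57. The spots around the CEBPA probe had a median of -0.06 relative to all genes, so its surroundings on the slide differed little between the arrays. The array labelled PTK7 siRNA was not close to the control array with the scanner's background column. CEBPA was then at 1.36 on it and at 0.73 on the villin siRNA array, a difference of -0.63 between the siRNA arrays.

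CEBPB, which is induced by inflammatory signals and during liver regeneration, lay at 2947, 2040 and 2237. Both siRNA arrays lay below the control array. For CEBPB the villin siRNA array was 1.35-fold lower (-0.43, and -0.51 after position scaling) and the array labelled PTK7 siRNA 1.24-fold lower (-0.31 and -0.27). CEBPD, another acute phase member, did not share this pattern: its intensities of 67, 63 and 79 gave -0.10 and, for the PTK7 label, 0.14. With the scanner's background column the CEBPB difference on the array labelled PTK7 siRNA turned to 1.36.

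The promoters of CEBPA and RXRA, the genes with the lowest differences on the villin siRNA array, and of CEBPB, the C/EBP partner of CEBPA, are shown from 250 bases before to 50 bases after the start of transcription, as RefSeq gives them for GRCh38.p14. They were chosen after their values were seen. For CEBPB and RXRA, 2 starts are listed and the first is printed. Capitals mark every match, on either strand, to the motifs searched.
CEBPA (chr19:33302485-33302784, minus strand): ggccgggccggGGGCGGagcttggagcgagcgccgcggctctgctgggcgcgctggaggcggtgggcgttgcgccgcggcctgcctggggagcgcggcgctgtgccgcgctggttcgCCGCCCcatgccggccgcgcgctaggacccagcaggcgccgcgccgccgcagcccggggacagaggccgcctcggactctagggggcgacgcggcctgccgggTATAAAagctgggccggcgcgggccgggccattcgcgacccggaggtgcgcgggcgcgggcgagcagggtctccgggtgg
CEBPB (chr20:50190333-50190632, plus strand): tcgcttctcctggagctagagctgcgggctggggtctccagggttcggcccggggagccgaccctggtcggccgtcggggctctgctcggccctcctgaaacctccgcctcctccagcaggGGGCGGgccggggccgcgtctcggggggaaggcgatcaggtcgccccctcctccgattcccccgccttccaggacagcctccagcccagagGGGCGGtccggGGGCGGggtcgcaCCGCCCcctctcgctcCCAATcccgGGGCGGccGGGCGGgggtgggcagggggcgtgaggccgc
RXRA (chr9:134326205-134326504, plus strand): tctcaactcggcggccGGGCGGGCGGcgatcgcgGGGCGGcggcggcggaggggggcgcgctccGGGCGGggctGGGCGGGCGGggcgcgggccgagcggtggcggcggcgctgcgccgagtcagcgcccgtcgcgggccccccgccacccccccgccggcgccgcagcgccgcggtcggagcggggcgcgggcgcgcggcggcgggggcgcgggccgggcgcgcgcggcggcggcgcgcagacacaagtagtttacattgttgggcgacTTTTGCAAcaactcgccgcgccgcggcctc
The motifs were the TATA box TATAAA, the CCAAT box CCAAT, the GC box GGGCGG, the E-box CACGTG, the cyclic AMP response element TGACGTCA, the C/EBP-type site TTGCNNAA, the nuclear receptor half-site AGGTCA and its direct repeat AGGTCANAGGTCA, which contains the half-site, the FOXA-type site TGTTTAC and the D-box TTATGTAA of the PAR bZIP factors. The CEBPA promoter has a TATA box that begins 30 bases before the start and 2 GC boxes, CEBPB has 6 GC boxes and a CCAAT box, and RXRA has 6 GC boxes, some of them overlapping, and a C/EBP-type match just after the start. Of the 36 genes, 28 have an entry in the table. A GC box was in 19 of these 28 promoters (67.9%) and in 44.6% of 27305 promoters, and the median GC content was 65.8% against 58.3%. A TATA box was in 4 of 28 (CEBPA, FOXA3, HLF and NR5A2), against 12% of all promoters, and an E-box, the site through which clock factors act, in 4 (KLF15, NR2F2, ONECUT1 and TEF), against 7.43%. The half-site was in 5 (CREB3L3, FOXA3, NR1H3, NR5A2 and RARA), against 13.9%. A motif match describes these letters only.

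The FOXA proteins, pioneer factors that open liver enhancers, differed little between arrays. FOXA1 lay at 112, 101 and 112, FOXA2 at 128, 121 and 110 and FOXA3 at 50, 44 and 42. All 3 were lower on the villin siRNA array, with differences of -0.16, -0.09 and -0.15, values well inside the range that held the central 95% of all genes, -0.40 to 0.49. HNF4G, the paralog of HNF4A, was dim at 7, 7 and 9. ONECUT1 (HNF6), a cut-homeodomain factor of hepatocyte and bile duct development, lay at 82, 67 and 70, with differences of -0.24 and -0.17 from the control array. ONECUT2 went the other way, with 26, 33 and 43. Its difference on the array labelled PTK7 siRNA, 0.33, was the highest of the list there, and the spots around it were high as well, with a median of 0.57 relative to all genes. After position scaling it was 0.08, and on the villin siRNA array 0.11 became -0.07.

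**Figure D2:**
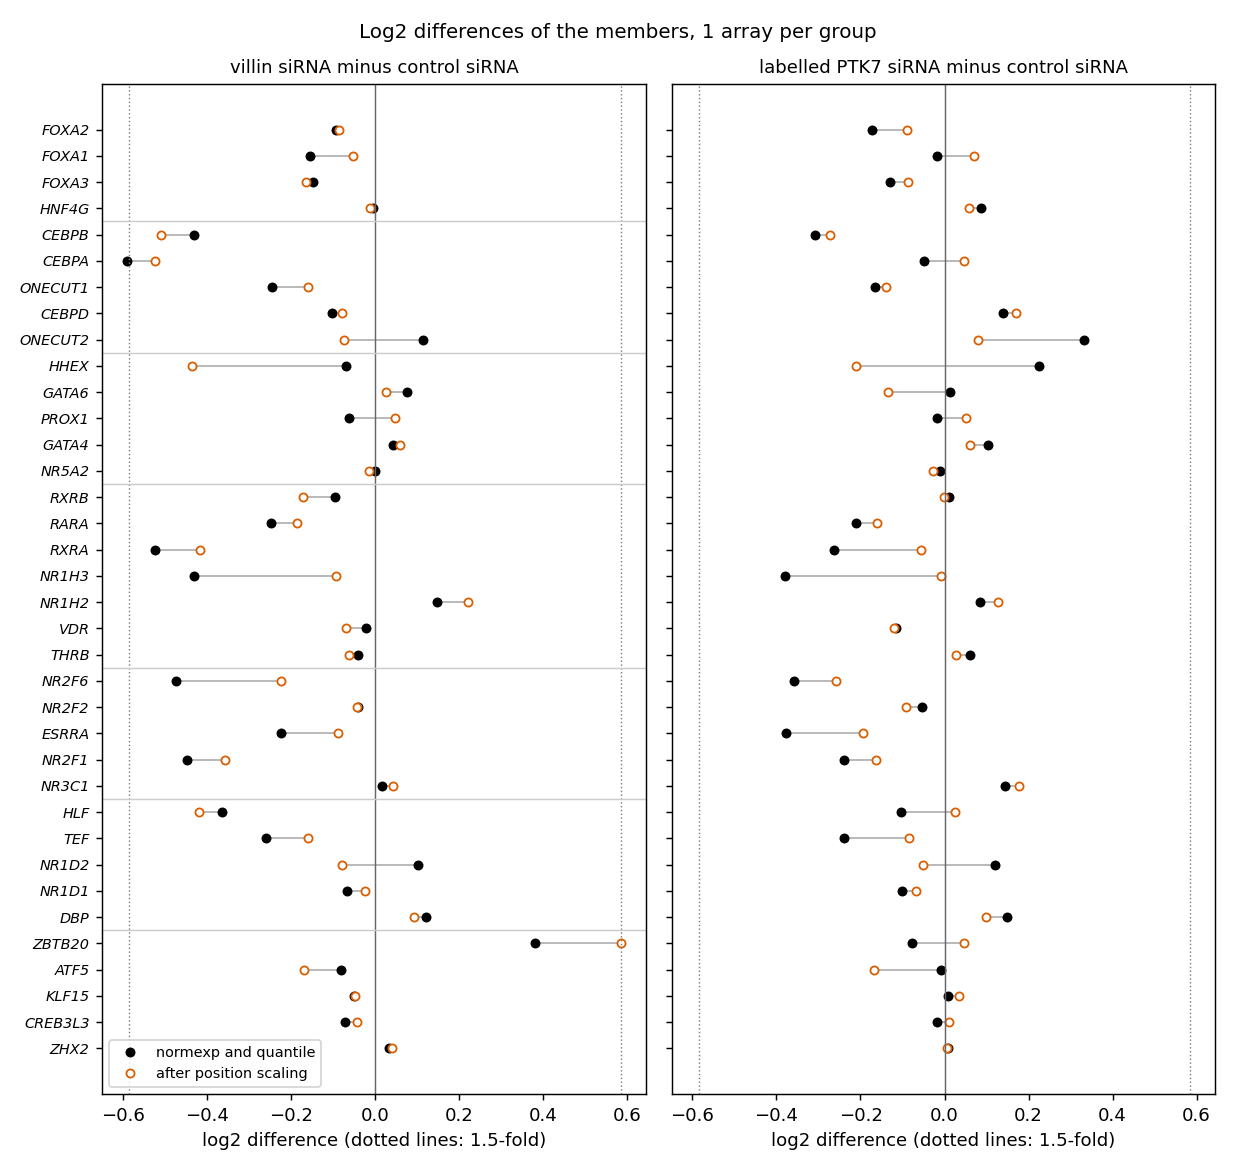
Log2 difference of each of the 36 genes from the control array for the villin siRNA array (left) and the array labelled PTK7 siRNA (right), before (filled) and after (open) position scaling, with dotted lines at 1.5-fold and 1 array per group. On the left CEBPA reaches -0.59 and, after scaling, ZBTB20 reaches 0.59, and on the right no gene passes 0.38 in either direction.

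Among regulators of liver development, GATA6, a zinc finger factor of early endoderm, lay at 129, 142 and 131, and PROX1, a homeobox factor of hepatoblasts, at 68, 67 and 67. The 3 arrays were nearly equal for both. GATA4, a partner of GATA6 in endoderm, was dim at 14, 16 and 18, and NR5A2 (LRH-1), a nuclear receptor of bile acid synthesis, also dim at 4, 5 and 4. HHEX, a homeobox factor of the liver bud, lay at 338, 320 and 402, with a difference of -0.07 on the villin siRNA array. Its probe lies in the last block of the slide, where the surrounding spots had a median of 0.43, and position scaling moved its difference there to -0.43. On the array labelled PTK7 siRNA it moved from 0.22 to -0.21. The direction on the latter array thus turned with position scaling, and the cause was not tested.

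Among receptors that respond to retinoids, thyroid hormone, vitamin D and sterols, RXRA was lowest. RXRA encodes the main retinoid X receptor of liver and the common partner of the retinoic acid, liver X, vitamin D and thyroid hormone receptors. It lay at 128, 80 and 101, so that the villin siRNA array was lowest and the array labelled PTK7 siRNA in between. Against the control array RXRA was 1.44-fold lower in the former (-0.52, rank 130 from the lowest) and differed by -0.26 in the latter. After position scaling the first difference was -0.42 and the second -0.06. Without the offset, by plain subtraction of the blank signal, the first was -0.72, past 1.5-fold. RXRB, a second retinoid X receptor, lay at 243, 228 and 243, close on all 3 arrays.

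The oxysterol receptors differed in direction, with a gap that narrowed after position scaling. NR1H3 (liver X receptor alpha), an activator of cholesterol export and fatty acid synthesis genes, lay at 111, 76 and 77, with differences of -0.43 and -0.38 for the villin and PTK7 labels. The spots around it were equally low, at -0.46 and -0.49 relative to all genes, and after position scaling its differences were -0.09 and -0.01. A second NR1H3 probe in another block lay at 41, 35 and 30, with -0.17 and -0.22, or -0.04 and -0.05 after scaling. NR1H2 (liver X receptor beta) lay at 49, 61 and 55, higher by 0.15 on the villin siRNA array and 0.22 after scaling. Of 14 listed targets of these receptors, NR1H3 itself among them, 12 were measured. None of the 12 was beyond 1.5-fold, where at most 1.62% of all genes were higher and 0.529% lower. The medians of the 12 were 0.00 and 0.01 in the 2 comparisons with the control array. ABCA1, the cholesterol exporter, was highest among them on the villin siRNA array, at 0.36, or 0.25 after scaling.

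RARA, a retinoic acid receptor, lay at 207, 172 and 175, with differences of -0.25 and -0.21. The probe of RARB had a value of 4 on the control array and 3 on the villin siRNA array, and was not above background on the array labelled PTK7 siRNA. VDR, the vitamin D receptor, lay at 39, 40 and 33, and THRB, the thyroid hormone receptor of liver, was dim at 6, 5 and 7. CYP24A1, the vitamin D hydroxylase that VDR induces, stood out among 10 measured target genes of the retinoic acid and vitamin D receptors. It lay at 219, 461 and 438, high on both siRNA arrays. CYP24A1 was 1.92-fold and 1.84-fold higher there than on the control array. Its probe lies in the last block too, and after position scaling its log2 differences were 0.59 and 0.36. The median of the 10 genes was 0.05 and 0.07, and CYP24A1 was the only one beyond 1.5-fold in either comparison. Of all genes 1.62% and 0.822% were at least 1.5-fold higher in these comparisons.

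**Figure D3:**
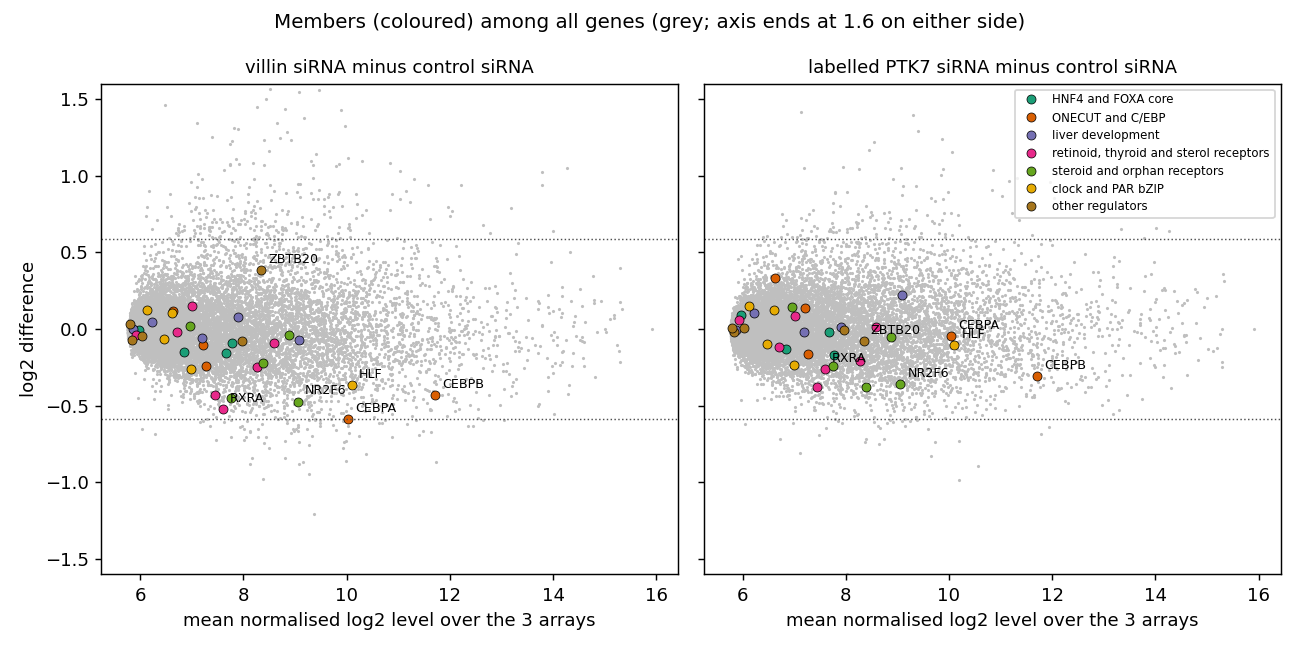
Log2 difference from the control array against the mean normalised log2 level, for the villin siRNA array (left) and the array labelled PTK7 siRNA (right), with all genes in grey and the 36 genes coloured by role (vertical axis ending at 1.6 on either side, so that a few genes lie outside). Dim genes lie close to 0 because of the offset, and CEBPA on the left is the only coloured point at the 1.5-fold line.

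The orphan receptors of the COUP-TF group, mostly repressors, were not alike. NR2F6 lay at 424, 296 and 323 and NR2F1 at 143, 98 and 117, the control array being highest for both. NR2F2, which shares most of its DNA-binding domain with NR2F1, lay at 309, 301 and 294, with differences of -0.04 and -0.05. For NR2F6 the villin siRNA array was 1.39-fold lower (-0.47), but -0.22 after position scaling, and its second probe lay at 53, 47 and 47 with -0.14. NR2F1 was 1.36-fold lower (-0.45), and -0.36 after scaling, with -0.24 and -0.16 on the array labelled PTK7 siRNA. ESRRA, an estrogen-related receptor of mitochondrial gene expression, lay at 237, 201 and 175. It was lowest on the array labelled PTK7 siRNA, by -0.38, or -0.19 after scaling.

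NR3C1, the glucocorticoid receptor, lay at 48, 51 and 57, with differences of 0.02 and 0.14. Of 12 measured glucocorticoid receptor targets none was beyond 1.5-fold, where at most 1.62% of all genes were higher and 0.529% lower. The medians of the 12 were -0.04 and, for the PTK7 label, -0.08 (-0.02 and -0.01 after position scaling).

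Among clock output genes HLF had the lowest difference on the villin siRNA array. HLF, a PAR bZIP factor of detoxification genes, lay at 860, 638 and 778, which makes the villin siRNA array 1.29-fold lower in normalised values (-0.36, and -0.42 after position scaling). It was closer to the control array on the array labelled PTK7 siRNA, at -0.10, or 0.02 after scaling. On both siRNA arrays HLF turned higher with the scanner's background column, at 1.05 and, for the PTK7 label, 1.61. TEF, of the same family, lay at 63, 49 and 48, with differences of -0.26 and -0.24, or -0.16 and -0.08 after scaling. DBP, the third PAR bZIP gene, was dim at 9, 14 and 14, with differences of 0.12 and 0.15 in the opposite direction. The REV-ERB repressors NR1D1 and NR1D2 lay at 28, 26 and 23 and at 28, 35 and 34. None of 16 measured clock genes of a separate list was beyond 1.5-fold, where at most 1.62% of all genes were higher and 0.529% lower. The medians of the 16 were -0.04 and 0.01. NFIL3, a repressor at D-boxes, was lowest on the array labelled PTK7 siRNA, at -0.43, or -0.34 after scaling.

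ZBTB20, a zinc finger repressor of the fetal gene AFP in adult liver, was the highest of the list on the villin siRNA array. It lay at 177, 250 and 169, the villin siRNA array alone being high. Its log2 difference was 0.38 (1.30-fold) from the control array and 0.46 (1.37-fold) from the array labelled PTK7 siRNA. The spots around its probe were low, with a median of -0.20 relative to all genes, and after position scaling the differences were 0.59 (just past 1.5-fold) and 0.54. They were 0.21 and -0.08 with the scanner's background column, where ZBTB20 was at 0.29 on the array labelled PTK7 siRNA. AFP itself, at 7475, 5375 and 7793, differed by -0.37 on the villin siRNA array, or -0.23 after scaling. Among the other hepatocyte markers ALB, TF and FGB differed there by -0.56, -0.43 and -0.41, while TTR was at 0.24 and APOA1 at 0.04. A link between ZBTB20 and AFP was not tested.

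The remaining regulators were flat or dim. ATF5, a bZIP factor of the stress response that is abundant in liver, lay at 144, 138 and 143, with all arrays close. KLF15, a regulator of amino acid breakdown and glucose production, was dim at 10, 9 and 10. CREB3L3, a membrane-bound activator of fasting genes, lay at 4, 2 and 3. ZHX2, another repressor of AFP, lay at 2, 3 and 2. The mean intensity of 8 of the 36 genes was 25 or less. At such intensities 1 unit of rounding is a large share of the signal, and folds of DBP, CREB3L3 and ZHX2 depended on the offset.

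**Figure D4:**
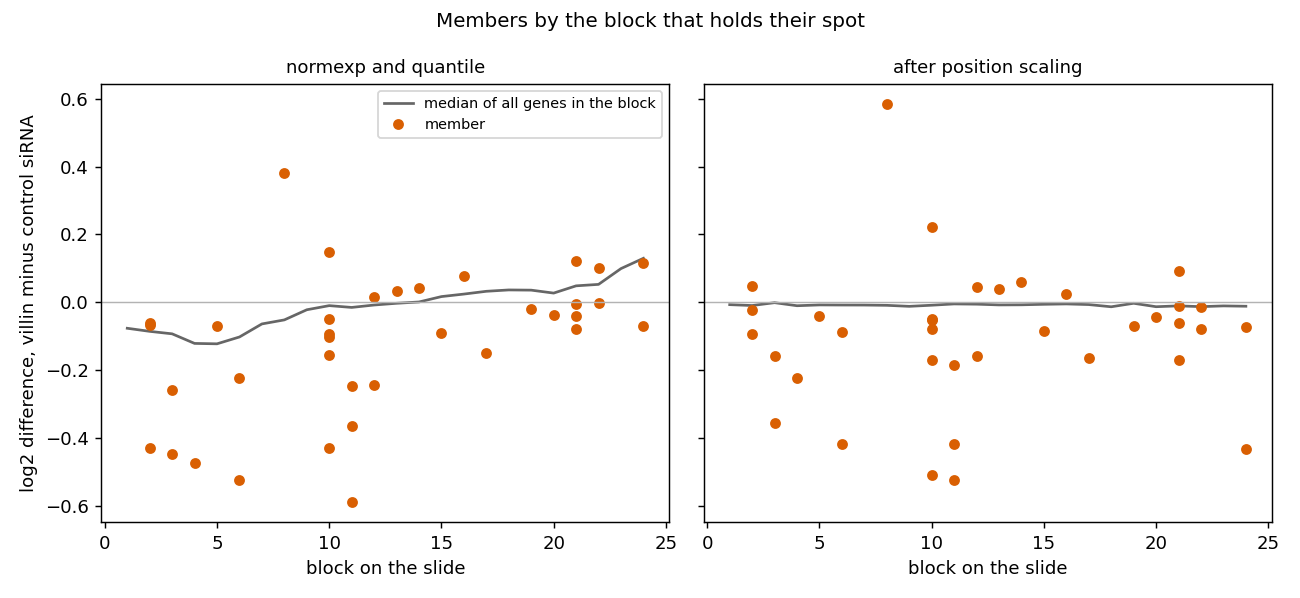
Log2 difference of the villin siRNA array from the control array for the 36 genes (points) by the block of the slide that holds their spot, with the median of all genes in each block (line), before (left) and after (right) position scaling. Before scaling the low points CEBPA, RXRA, NR2F6, NR2F1, NR1H3, CEBPB and HLF all lie in blocks 2 to 11, where the line is below 0, and after scaling the line is flat. The line before scaling is only at -0.01 for CEBPB (block 10) and -0.02 for CEBPA and HLF (block 11). For RXRA, NR2F6, NR2F1 and NR1H3 it lies between -0.12 and -0.09.

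The share of lower genes differed between blocks 1 to 12 and blocks 13 to 24, and the cause was not tested. Of the 21 liver factors in blocks 1 to 12, 18 were lower on the villin siRNA array (85.7%, against 73.0% of all genes there), and of the 15 in blocks 13 to 24, 9 were lower (60.0%, against 36.3%). After position scaling the counts were 17 of 21 (81.0%, against 53.9%) and 11 of 15 (73.3%, against 54.1%). In all, 28 of 36 genes were lower after position scaling, with a median of -0.08, against 54.0% of all genes, while with median scaling the share was near that of all genes, as given above.

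On the array labelled PTK7 siRNA the liver factors lay close to the control array. Of the 36 genes, 22 were lower and 14 higher, with a median of -0.02, against 52.9% of all genes lower and a median of -0.01. No gene was at least 1.5-fold apart, where 0.217% of all genes were lower and 0.822% higher. NR1H3 (-0.38), ESRRA (-0.38), NR2F6 (-0.36) and CEBPB (-0.31) were the 4 genes at least 1.2-fold lower, against 5.95% of all genes, and ONECUT2 was the 1 gene higher by that much, against 6.8%. After position scaling no gene was 1.5-fold apart, where 0.0637% of all genes were lower and 0.108% higher. CEBPB (-0.27) was then the only one 1.2-fold lower, against 2.01% of all genes, and none was higher, against 2.26%. Both comparisons share the control array, so genes on the same side of it on both siRNA arrays are no independent repeat.

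Set directly against each other, the 2 siRNA arrays differed by at least 1.5-fold in none of the 36 genes, where 0.491% of all genes were higher and 0.172% lower on the villin siRNA array. Of the 36 genes, 26 were lower on the villin siRNA array, with a median of -0.05, against 52.3% of all genes. With median scaling 19 were lower, against 51.6% of all genes, and with the background column 20, against 42.5%. CEBPA (-0.54) and ZBTB20 (0.46) lay at the ends, and with HHEX (-0.29) were the genes beyond 1.2-fold, where 3.06% of all genes were lower and 3.44% higher. RXRA (-0.26) and HLF (-0.26) followed just inside that limit. After position scaling none was beyond 1.5-fold, where 0.115% of all genes were lower and 0.42% higher. CEBPA (-0.57), HLF (-0.44) and RXRA (-0.36) were then at least 1.2-fold lower, against 2.48% of all genes, and ZBTB20 higher, against 2.64%.

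**Figure D5:**
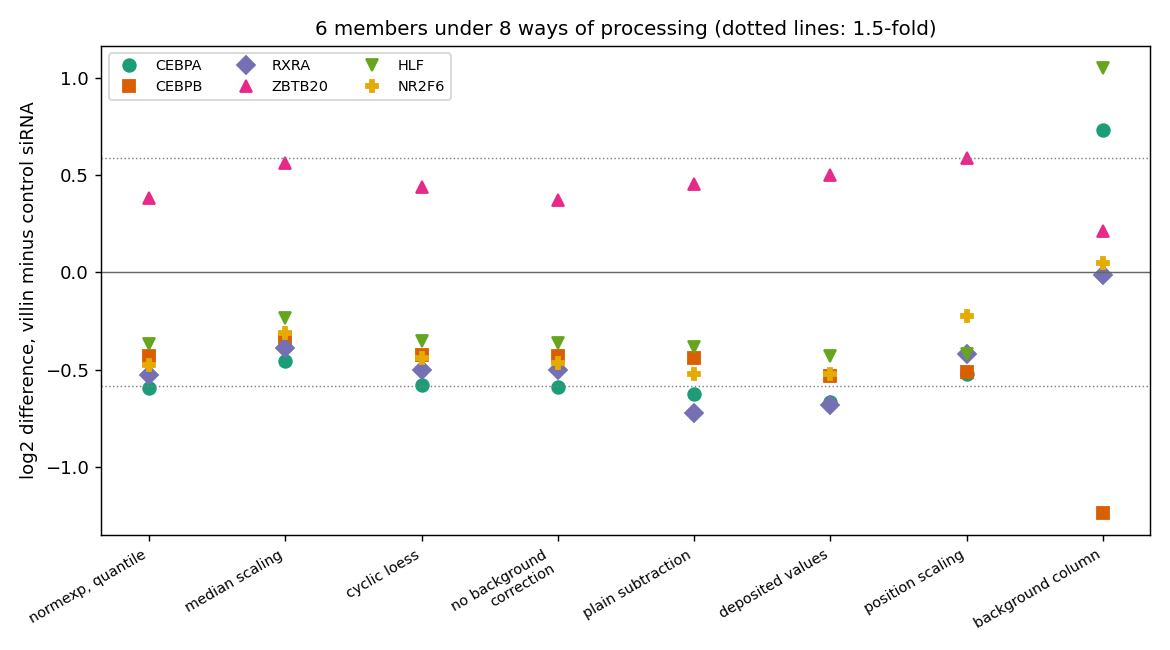
Log2 difference of the villin siRNA array from the control array for CEBPA, CEBPB, RXRA, ZBTB20, HLF and NR2F6 under 8 ways of processing, with dotted lines at 1.5-fold. Under 7 of them CEBPA lies between -0.67 and -0.46 and ZBTB20 between 0.37 and 0.59, and with the background column of the scanner files CEBPA and HLF turn to 0.73 and 1.05.

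The direction of these 6 genes was kept under most ways of processing. For CEBPA, CEBPB, RXRA, HLF and NR2F6 the villin siRNA array was lower under all 7 ways that do not use the scanner's background column. With that column, which follows the spot signal (r = 0.98 to 0.99 across probes on the log scale), CEBPA, HLF and NR2F6 turned, to 0.73, 1.05 and 0.05, while RXRA was at -0.01 and CEBPB at -1.23. ZBTB20 was higher than on the control array under all 8. Against the array labelled PTK7 siRNA it was higher under 7 of 8 and turned to -0.08 with that column.

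In normalised values no nuclear receptor outside the list was beyond 1.5-fold in any comparison. By this limit at most 1.62% of all genes were higher and 0.529% lower. After position scaling NR1H4 alone passed it on the villin siRNA array, against 0.287% of all genes lower than on the control array. Of 29 other receptors 23 were measured, 13 higher and 10 lower on the villin siRNA array with a median of 0.03, against 54.5% of all genes lower. After position scaling 9 were higher and 14 lower, with a median of -0.01, against 54.0% of all genes lower. NR1H4, the bile acid receptor FXR, lay at 134, 81 and 135, low on the villin siRNA array only. NR1H4 was 1.48-fold lower than on the control array (-0.57), and -0.76 after position scaling, past 1.5-fold. It was 0.00 on the array labelled PTK7 siRNA, or -0.17 after scaling. With the scanner's background column NR1H4 was low on both siRNA arrays, at -0.96 and, for the PTK7 label, -0.86. NR0B2 (SHP), a repressor that NR1H4 induces, was the highest of the 23 on the villin siRNA array, at 0.23, or 0.37 after scaling. None of these receptors was beyond 1.5-fold on the array labelled PTK7 siRNA, where the median was 0.00 with 12 higher and 11 lower, or -0.04 with 7 higher and 16 lower after scaling. Of all genes 52.9% were lower on that array, or 51.5% after scaling.

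Among 22 measured liver-enriched factors outside the list, 15 were lower on the villin siRNA array, with a median of -0.04, against 54.5% of all genes. Of the 22, 2 were at least 1.5-fold higher there and 2 lower, where 1.62% and 0.529% of all genes were. After position scaling 2 were higher and 0 lower by this limit, against 0.924% and 0.287% of all genes. KLF6, a zinc finger factor of injury responses, lay at 110, 212 and 133, 1.64-fold higher on the villin siRNA array (0.72, and 0.77 after position scaling). SOX4, a high-mobility-group factor, lay at 100, 343 and 167 and was higher by 1.45, or 1.39 after scaling. MLXIPL (ChREBP), the glucose-sensing activator of lipogenesis, lay at 285, 154 and 240, with a difference of -0.77, or -0.47 after scaling. XBP1, a factor of secretory capacity, lay at 1454, 912 and 1119, with a difference of -0.61, or -0.33 after scaling. On the array labelled PTK7 siRNA ATF4 was beyond 1.5-fold, at 0.62, but -0.21 after scaling, so that its direction turned.

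The 20 measured coactivators and corepressors of nuclear receptors held no gene beyond 1.5-fold in any comparison. At most 1.62% of all genes were higher by that limit and 0.529% lower. The medians of the 20 were -0.07 and -0.03 against the control array. NCOA4, a coactivator also known for ferritin turnover, was lowest on the villin siRNA array, at -0.47, from 3683 to 2476. CREBBP, a histone acetyltransferase, was highest on the array labelled PTK7 siRNA, at 0.56, with intensities of 2061, 2551 and 2927. After position scaling it was at 0.33, below the corepressor gene LCOR at 0.39. Of 26 measured hepatocyte genes at which HNF4A, FOXA or C/EBP factors bind, 16 were lower on the villin siRNA array, against 54.5% of all genes. Their median was -0.05. APOC3 (-1.21) and AGT (-0.87) were at least 1.5-fold lower, where 0.529% of all genes were, and 0 were higher, where 1.62% were. After position scaling AGT was at -0.57 and APOC3 (-0.965) alone stayed beyond 1.5-fold, against 0.287% of all genes lower. On the array labelled PTK7 siRNA 12 of the 26 were lower, against 52.9% of all genes, and the median was 0.01. None was beyond 1.5-fold there, where 0.217% of all genes were lower and 0.822% higher. HPD, an enzyme of tyrosine breakdown, and TTR, which carries thyroid hormone and retinol-binding protein, were the highest in the 2 comparisons, at 0.41 and 0.43.

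Where a gene of the list had 2 probes, they pointed the same way on the villin siRNA array. This held for PROX1, RXRB, RARA, NR2F6 and NR1H3, whose dimmer probes lay at -0.01, -0.20, -0.05, -0.14 and -0.17. None of these dimmer probes was 1.2-fold apart. RXRB was the 1 gene whose probes differed in direction on the array labelled PTK7 siRNA, at 0.01 and -0.23, and both were near 0 after position scaling.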

How the data were processed

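Per the file headers, the scanner output gives spot and background intensity (Cy5) at 27456 positions: 24460 probes, 2680 blanks and other controls. The authors' deposited table was recomputed to within 1 unit by taking the blank mean off each spot and dividing by 1.26, 1.60 and 1.34 on the 3 arrays. How the authors extracted or normalised the values is not given in the sources used here. The blank mean, after leaving out 5% at each end, was 60.8, 61.7 and 61.6 units, and a probe was detected if it exceeded this by 2 SDs (0.732 to 0.777 units) and was not flagged. This held for 22090, 22525 and 22064 probes, with a median signal of 31.6, 40.0 and 33.4 units above blank.

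Normexp with an offset of 50 and quantile normalisation were run with limma 3.58.1 in R 4.3.3 and tested on simulated data, and the rest with numpy 2.4.6, pandas 2.3.3, Python 3.11.15 and, for plots, matplotlib 3.10.9. The comparisons were differences of log2 intensity between pairs of the authors' deposited arrays, with no test and no p-value. Position scaling divided the signal by the local median deviation from the mean of the 3 arrays, over windows 11 columns wide and 5 rows high that stay inside a block. The platform annotation names 1 gene for 20236 probes, several for none, and leaves 4224 without a name. Symbols of the named probes were updated through the RefSeq table of GRCh38.p14 (17238 current, 2899 updated, 99 not matched), which gave 17559 genes, 15697 of them with a value on all arrays. All genes of the list are named. Values on all arrays were fixed for those beyond 1.5-fold, the 6 brightest and those with discordant probes, and are given for the rest too. From other lists up to 4 genes beyond 1.5-fold are named, and a few others were added after their values were seen. Members and lists were chosen with earlier results of these data known. Alternatives to these choices were the background column, no background correction, plain subtraction, the deposited values, cyclic loess, median scaling, position scaling, the mean of probes, brighter genes only and a 2-fold threshold. A threshold of 1.2-fold was added after seeing the data.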

Additional observations from a re-analysis of the deposited data

How the results depend on the processing

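With 1 array per group, no result has a significance threshold, and counts of 0 or 1 move with small changes. Against control, 1 gene was at least 1.5-fold lower with villin siRNA, and 0 with median scaling, cyclic loess, position scaling or a 2-fold threshold, 2 with the background column, 3 with the deposited values, 5 with plain subtraction and 7 at 1.2-fold. Of all 15697 genes 83 were lower, and 21 with median scaling, 60 with cyclic loess and 45 with position scaling. With the background column 607 of all genes were lower, with the deposited values 805, with plain subtraction 833 and at 1.2-fold 1116. Members that were higher numbered 0, and 1 with position scaling or at 1.2-fold, and 2 with the deposited values or the background column. Of all genes 254 were higher, and 145 with position scaling, 1184 at 1.2-fold, 1667 with the deposited values and 516 with the background column. On the array labelled PTK7 siRNA 0 members were higher and 0 lower, against 2 higher with the deposited values or plain subtraction, 4 higher and 3 lower with the background column, and 1 higher and 4 lower at 1.2-fold. Of all genes 129 were higher and 34 lower there, with 1204 higher with the deposited values and 1064 with plain subtraction. The background column gave 704 of all genes higher and 652 lower, and the 1.2-fold limit 1068 and 934. Between the siRNA arrays 0 members were apart, against 1 higher and 3 lower with the background column, 1 each way with the deposited values, 2 lower with plain subtraction, and 1 higher and 2 lower at 1.2-fold. Of all genes 77 were higher and 27 lower on the villin siRNA array. The background column gave 518 and 657, the deposited values 1047 and 357, plain subtraction 527 and 368, and the 1.2-fold limit 540 and 481.

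The median for the villin siRNA array, -0.07, was -0.14 with plain subtraction, -0.15 among genes above the median level and 0.01 (0.0062) with the background column. For the array labelled PTK7 siRNA, -0.02, it was -0.04 with the deposited values (-0.0440) and with the mean of probes (-0.0439), -0.0626 with plain subtraction, -0.10 among brighter genes and 0.00 (0.0040) with the background column. Between the siRNA arrays, -0.05, it was -0.01 with median scaling (-0.0097) and the background column (-0.0083), and -0.10 with plain subtraction. CEBPA on the villin siRNA array, at -0.59, was -0.46 with median scaling, -0.58 with cyclic loess, -0.52 with position scaling and 0.73 with the background column. The cause was not tested. The deposited values and plain subtraction have no offset, and with them DBP, CREB3L3, ZHX2 and ONECUT2 among the dimmer genes also reached 1.5-fold in a comparison with the control array. Signal over background limits the genes of low intensity. No paired analysis was possible because each group has 1 array.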
